A study of Mus musculus with 6 samples.

Results

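The nuclear-encoded subunits of the mitochondrial respiratory chain and of ATP synthase were taken as the protein-coding genes whose symbols begin with Ndufa, Ndufb, Ndufc, Ndufs or Ndufv and a number, with Ndufab1, the Uqcr genes, Cyc1, Sdhb, Sdhc, Sdhd, Cox4 to Cox8 and Atp5, leaving out assembly factors and pseudogenes. The rule used symbols and no measured value, and it found 85 of the 45193 genes in the count table. Of these, 38 belong to complex I, 3 to complex II, 9 to complex III, 18 to complex IV and 17 to complex V. A filter on low counts kept 80 of the 85, among 12011 genes tested. The symbols also brought in Cox7a2l, a factor that joins complexes III and IV, Atp5s, which encodes coupling factor B, and Ndufa4, which is named for complex I but whose protein is now assigned to complex IV, and they left out Sdha, the catalytic subunit of complex II. The subunits encoded in mitochondrial DNA were not analysed here.

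The study measured polyadenylated RNA of mouse bone marrow-derived macrophages, which are macrophages grown from bone marrow precursors, by single-end RNA-seq. There were 3 WT libraries and 3 libraries of the genotype RXRafl/flLysMCre RXRb-/-, called knockout below, all on C57BL/6J. RXRa and RXRb are retinoid X receptors, nuclear receptors that pair with other nuclear receptors on DNA. All cells were grown for 6 days with L929-conditioned medium as the source of CSF-1, moved to serum-free medium on the evening of day 5, and given only vehicle (DMSO) for 3 hours, so no group was activated. In the knockout, Rxra is deleted by Cre expressed from the lysozyme M gene, which is active in myeloid cells, while Rxrb is missing in the whole animal. The labels call the libraries of a genotype biological replicates and do not say whether each came from its own animal, so a p-value reflects only how far these libraries spread. The age of the mice was not given in the sources used here.

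Complex I takes electrons from NADH and complex II takes them from succinate. Both pass them to coenzyme Q, from which complex III hands them to cytochrome c and complex IV to oxygen, and complex V uses the resulting proton gradient to make ATP. In macrophages the use of this chain is known to differ between activation states, and complexes I and II are known as sources of reactive oxygen species.

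In the knockout 29 of the 80 tested members were lower at a Benjamini-Hochberg adjusted p below 0.05 over all tested genes (edgeR's quasi-likelihood test), and none was higher. Over all tested genes 9.61% were called lower and 9.77% higher. The members that fell were at 55.3% to 81.4% of the WT level on the fitted scale. The median log2 fold change of the 80 members was -0.28, beside -0.01 over all tested genes, and 77 of the 80 lay below 0, where 50.7% of all tested genes did. All 3 knockout values lay below all 3 WT values for 38 members, and for 17.9% of all tested genes. No member had all knockout values above all WT values, and the groups overlapped for 42 members. By complex, 17 of 37 tested members of complex I fell, 1 of 3 of complex II, 1 of 9 of complex III, 6 of 14 of complex IV and 4 of 17 of complex V. Here and below Ndufa4, which fell, is counted in complex I by its symbol.

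The size of these differences depended on transcript length. Other tested genes with transcripts shorter than 0.5 kb had a median log2 fold change of -0.28, and 13.2% of them were called lower. The members are short: their median length was 743.5 bases, beside 2623 bases for all tested genes. When each library's own trend over transcript length was fitted on all genes and entered as an offset, 11 members fell, none rose, and the members' median was -0.09. Under that offset 7.67% of all tested genes were called lower and 7.98% higher. The 11 were Ndufa3, Ndufb8, Ndufc1, Ndufs4, Ndufs6, Ndufv2, Cox5b, Cox7a2, Cox7b, Atp5j2 and Atp5o, all among the 29.

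The counts also depended on single libraries. Without WT replicate 1, 11 members fell, with 5.01% of all tested genes called lower. Without knockout replicate 1, 18 fell beside 5.67%, and without knockout replicate 2, 18 fell beside 6.78%. The 11 members that fell in all 6 such fits were Ndufa3, Ndufa4, Ndufc1, Ndufs4, Ndufs6, Ndufv2, Cox5b, Cox7a2, Cox7b, Atp5j2 and Atp5o. With the length offset, 3 members fell without WT replicate 1 (background 4.38%), 6 without knockout replicate 1 (4.88%) and 7 without knockout replicate 2 (6.01%). The 3 of 80 members without WT replicate 1 were a smaller share than that background. Ndufs4, Ndufs6 and Ndufv2 fell with the length offset in the full fit and in all 6 fits that left out a library.

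**Figure D1:**
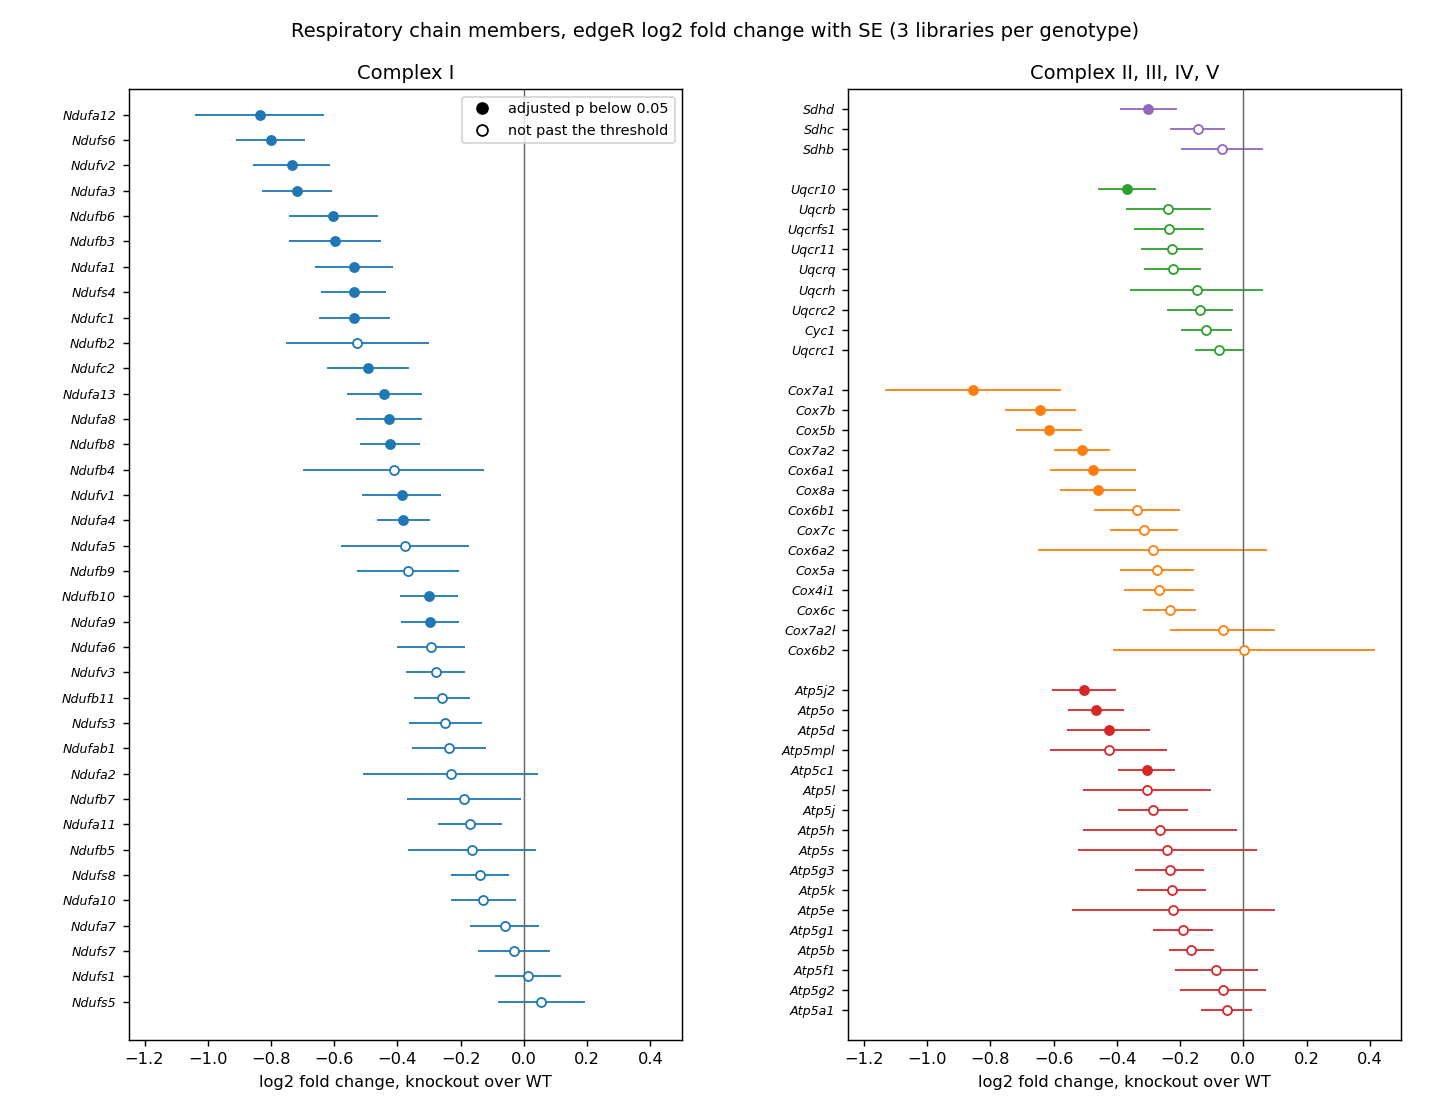
Log2 fold change of tested members (knockout over WT, horizontal axis) with its SE, by complex; filled points passed the adjusted p of 0.05. All but 3 of the points drawn lie left of 0, and the members that passed are most numerous in complex I, with 17.

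Several features of the whole set of libraries moved with genotype. Rxrb was 64.7, 66.9 and 68.4 CPM (read counts scaled to a common library size) in WT and 8.14, 7.98 and 11.7 CPM in the knockout. Rxra gene totals were at 97.0 to 110 CPM in WT and at 104 to 113 CPM in the knockout, so the total count of this gene does not show the deletion of its floxed part. Lyz2, the gene that carries Cre, was at 14747 to 15909 CPM in WT and at 23.1 to 35.1 CPM in the knockout. Total counts were 7880320 to 14957253 in WT and 17250051 to 25091019 in the knockout, so depth and genotype cannot be told apart. After all libraries were thinned to the smallest, 26 members fell (background 9.3%). Thinning evens out read numbers only, so it cannot separate genotype from other library differences that go with depth. Xist was at 0 CPM in all WT libraries and at 209 to 267 CPM in the knockout. The Y-linked Ddx3y was at 101 to 112 CPM in WT and at 49.7 to 55.4 CPM in the knockout. These sex-linked transcripts thus also separated the genotypes, and all 3 knockout libraries held both Xist and Ddx3y reads. The labels give no sex or pooling, so whether the knockout libraries came from a shared or mixed-sex source of cells is not known. The p-values take the libraries as separate replicates. The summed level of 8 macrophage markers was at 6895 to 7912 CPM in WT and at 7610 to 8882 CPM in the knockout, where 3 rose and 2 fell. Of 8 neutrophil markers none rose and 3 fell (1077 to 1221 CPM in WT against 985 to 1096 CPM in the knockout). Of 5 B cell markers 2 were tested and both fell (50.6 to 60.4 CPM in WT against 26.6 to 33.2 CPM in the knockout). The erythroid genes Hba-a1 and Hbb-bs were at 0 in all libraries, and the summed T cell markers were at 9.78 to 14.4 CPM in both genotypes. Depth, the Lyz2 level and the sex-linked transcripts all went with genotype. Their part in the members' differences therefore cannot be told apart from that of the deleted receptors. The part of cell makeup was not tested, and in bulk RNA fewer cells of a type and less RNA per cell cannot be told apart.

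In complex I, the nuclear-encoded core subunits make up the part that carries the redox centres and are conserved from bacteria. The accessory subunits surround the core. Of the 7 nuclear-encoded core subunits 2 fell, Ndufv2 and Ndufv1, with a median log2 fold change of -0.14. Of 30 tested accessory subunits, with Ndufa4 counted among them by its symbol, 15 fell, with a median of -0.38. Median transcript length was 1312 bases for the core and 674.5 bases for the accessory subunits, and with the length offset 1 core and 5 accessory subunits fell, with medians of -0.02 and -0.20. The difference between core and accessory subunits was not tested.

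Ndufv2 (chr17:66078638-66101559, minus strand, GRCm38) encodes an iron-sulfur subunit of the arm of complex I that oxidises NADH. It was at 106, 90.0 and 77.0 CPM in WT and at 56.6, 58.9 and 48.2 CPM in the knockout. Every knockout value was below the lowest WT value. Its log2 fold change was -0.74 (edgeR adjusted p 0.000997, SE 0.121), and -0.60 with the length offset (adjusted p 0.0032).

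Ndufs6 (chr13:73319838-73328542, minus strand) encodes an accessory subunit of the same arm that binds zinc. It was at 46.5, 52.4 and 40.2 CPM in WT and at 27.2, 25.6 and 26.7 CPM in the knockout. The knockout values lay close together, far under the WT range. The log2 fold change was -0.80 (edgeR adjusted p 0.00027, SE 0.110), and -0.56 with the length offset (adjusted p 0.00129).

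Ndufs4 (chr13:114287795-114388258, minus strand) encodes an accessory subunit needed for stable attachment of the NADH-oxidising arm, and its loss is a well-known mouse model of Leigh syndrome. It was at 35.9, 33.6 and 30.4 CPM in WT and at 23.3, 23.0 and 22.3 CPM in the knockout. The groups did not overlap, and the knockout spread was the smaller. The log2 fold change was -0.54 (edgeR adjusted p 0.00288, SE 0.103). Its transcript of 1698 bases is long for this gene group, and the value moved little with the length offset, to -0.45 (adjusted p 0.00677).

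Other subunits of that arm did not all change. Ndufv1, which binds NADH, fell by 0.39 on the log2 scale (edgeR adjusted p 0.0465), but knockout replicate 3 (93.1 CPM) lay above WT replicate 3 (90.7 CPM), and it did not pass with the length offset (adjusted p 0.118). Ndufs1, the large iron-sulfur subunit, was at 86.1, 98.1 and 76.0 CPM in WT and at 82.9, 83.5 and 95.2 CPM in the knockout. These values overlapped fully, with a log2 fold change of 0.01 (SE 0.104). Ndufv3 had a log2 fold change of -0.28 (adjusted p 0.0523) and Ndufa2 of -0.23 (adjusted p 0.618). Ndufs1, Ndufv1, Ndufv3 and Ndufa2 were chosen after their values were seen, to set the arm beside its 3 members above.

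Of the core subunits of the arm that reduces coenzyme Q, Ndufs3, Ndufs7 and Ndufs8 did not pass. They had log2 fold changes of -0.25, -0.03 and -0.14, with overlapping groups in each, and were named after their values were seen to set this arm beside the other.

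Ndufa3 (chr7:3617373-3620327, plus strand) encodes a small accessory subunit of the membrane arm. It was at 50.9, 41.9 and 43.4 CPM in WT and at 29.4, 28.6 and 24.8 CPM in the knockout. The groups were well apart, with a log2 fold change of -0.72 (edgeR adjusted p 0.000613, SE 0.110), and -0.45 with the length offset (adjusted p 0.0219).

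Ndufc1 and Ndufb8 encode further membrane-arm subunits. Ndufc1 was at 41.0, 40.0 and 32.6 CPM in WT and at 25.5, 25.1 and 27.4 CPM in the knockout, with a fold change on the log2 scale of -0.54 (edgeR adjusted p 0.00483). Ndufb8, whose protein is widely used as a marker of assembled complex I, was at 89.4, 85.6 and 73.7 CPM in WT and at 61.5, 58.9 and 64.6 CPM in the knockout, with a fold change on the log2 scale of -0.42 (edgeR adjusted p 0.00725). Neither gene's groups overlapped, and both passed with the length offset, at -0.33 (adjusted p 0.029) and -0.30 (adjusted p 0.0226).

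For the remaining accessory subunits that fell, the call did not hold with the length offset. Ndufa12, a subunit next to the NADH-oxidising arm, had the lowest log2 fold change of complex I, -0.84 (edgeR adjusted p 0.0131, SE 0.204). It was at 21.3, 14.9 and 22.6 CPM in WT and at 11.8, 13.7 and 7.66 CPM in the knockout, so the groups were separate but each was widely spread, and with the offset it reached -0.65 (adjusted p 0.0929). Ndufa4 was at 118, 116 and 114 CPM in WT and at 96.1, 90.0 and 81.3 CPM in the knockout, with a fold change on the log2 scale of -0.38 (edgeR adjusted p 0.00739) that became -0.12 with the offset (adjusted p 0.467). Ndufb3, Ndufb6, Ndufa1, Ndufc2, Ndufa13 and Ndufa8 fell by 0.60, 0.60, 0.54, 0.49, 0.44 and 0.43 on the log2 scale, and with the offset their adjusted p ranged from 0.0503 in Ndufb3 to 0.199 in Ndufa1. Ndufb10 and Ndufa9, the last 2 accessory subunits that fell and named after their values were seen, had log2 fold changes of -0.30 each.

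The highest log2 fold change among all members was that of Ndufs5, an accessory subunit of the intermembrane-space side. It was at 9.75, 8.74 and 10.7 CPM in WT and at 10.6, 10.3 and 9.67 CPM in the knockout, with overlapping groups and a log2 fold change of 0.06 (SE 0.138). Ndufa4l2, known as a hypoxia-induced relative of Ndufa4, had 1 read in knockout replicate 1 and none in the other libraries.

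**Figure D2:**
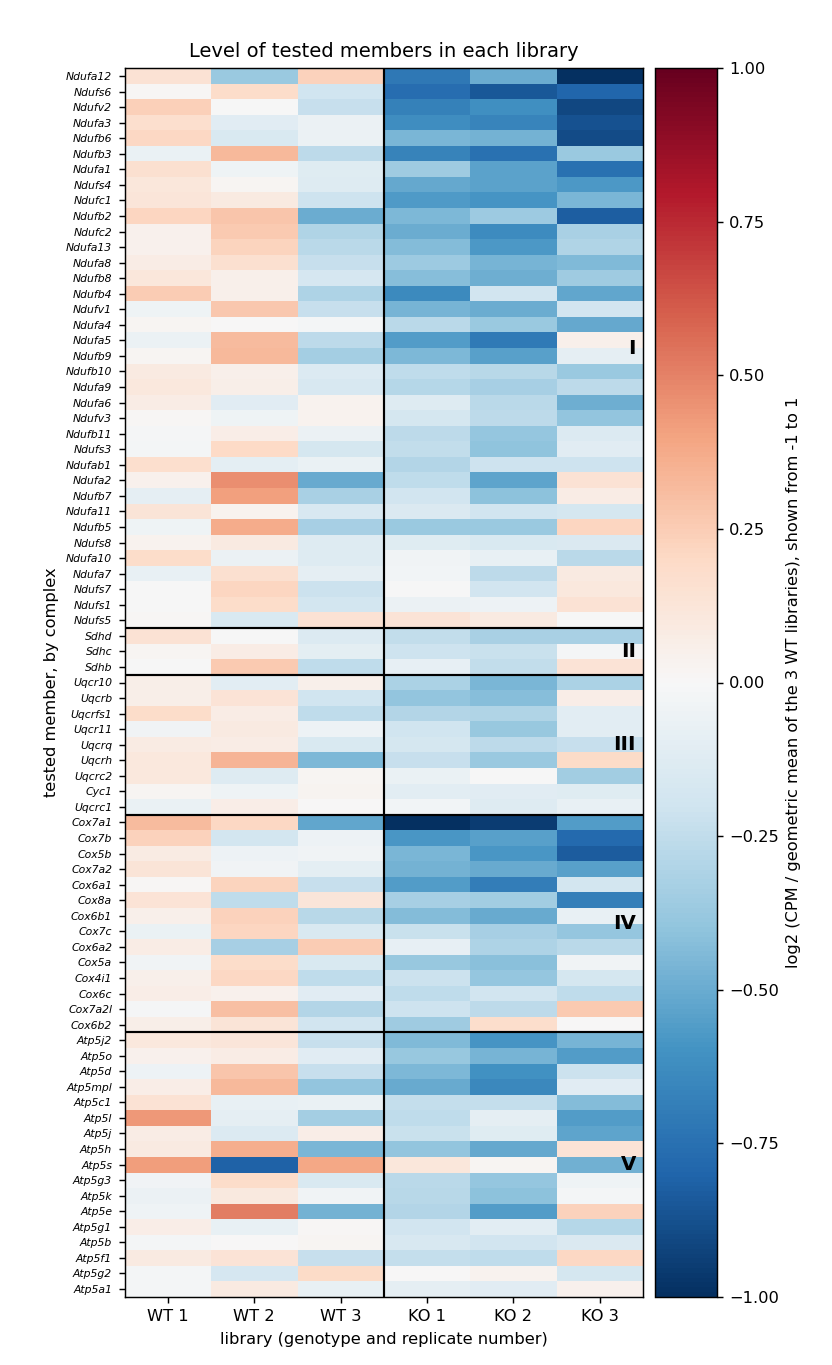
Level of tested members in each of the 6 libraries, as log2 of CPM over the geometric mean of the 3 WT libraries, with members ordered by complex on the vertical axis. WT replicates 1 and 2 hold the high values of most members, and WT replicate 3 and knockout replicate 3 lie nearer to each other.

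Complex II has 4 nuclear-encoded subunits in all, of which the rule took 3. Sdhd, a membrane anchor, was at 125, 112 and 102 CPM in WT and at 95.1, 89.9 and 90.2 CPM in the knockout. The groups were separate, with a log2 fold change of -0.30 (edgeR adjusted p 0.033, SE 0.090), and the call did not hold with the length offset (-0.16, adjusted p 0.209). Sdhb, the iron-sulfur subunit, was at 192, 231 and 162 CPM in WT and at 182, 163 and 213 CPM in the knockout. These groups overlapped, and the log2 fold change of -0.07 (SE 0.129) turned to 0.09 with the length offset. Sdhc, the other anchor, overlapped between the groups at -0.14, and Sdha, outside the rule, had a log2 fold change of -0.06.

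In complex III only Uqcr10 passed. Uqcr10 (chr11:4701973-4704342, minus strand), which encodes a small subunit at the cytochrome c1 side, was at 64.0, 57.3 and 63.6 CPM in WT and at 49.5, 44.8 and 49.4 CPM in the knockout. The groups were clearly apart, with a log2 fold change of -0.37 (edgeR adjusted p 0.0131, SE 0.091), while with a transcript of 434 bases it reached -0.11 with the length offset (adjusted p 0.523). Uqcrc1, a core protein and the most highly counted member of this complex, was at 176, 193 and 184 CPM in WT and at 180, 169 and 175 CPM in the knockout. Its groups overlapped, and the log2 fold change was -0.08 (SE 0.077), or 0.02 with the offset.

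Complex III had the lowest share of calls among the larger complexes and also the shortest transcripts, with a median of 535 bases. Its median log2 fold change of -0.22 became 0.00 with the length offset. Cyc1, which carries the haem of cytochrome c1, and Uqcrfs1, the Rieske iron-sulfur protein, had log2 fold changes of -0.12 and -0.24, neither past the threshold. Both were named after their values were seen, as the redox subunits of the complex.

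In complex IV, 5 of 10 widespread subunits fell, with a median log2 fold change of -0.40, and 3 fell with the length offset. Cox5b (chr1:36691449-36693681, plus strand), a zinc-binding matrix-side subunit, was at 75.7, 69.1 and 69.8 CPM in WT and at 52.0, 47.9 and 40.2 CPM in the knockout. The highest knockout value was well under the lowest WT value. The log2 fold change was -0.61 (edgeR adjusted p 0.00126, SE 0.104), and -0.41 with the length offset (adjusted p 0.0256).

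Cox7b (chrX:106015700-106022450, plus strand), a small membrane subunit, was at 83.3, 62.7 and 68.8 CPM in WT and at 47.4, 48.8 and 41.5 CPM in the knockout. The groups did not overlap, although WT replicate 1 stood above the other WT libraries. The log2 fold change was -0.64 (edgeR adjusted p 0.00161, SE 0.113), and -0.47 with the length offset (adjusted p 0.015). Cox7b, Ndufa1 and Ndufb11 are the X-linked members, and the genotypes differed in Xist as given above. Ndufa1 fell, while Ndufb11 had a log2 fold change of -0.26 (edgeR adjusted p 0.0596). Sex and genotype cannot be told apart in these values.

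Cox7a2, the widespread form of a small membrane subunit, was at 84.6, 75.3 and 72.4 CPM in WT and at 55.5, 54.5 and 53.0 CPM in the knockout. The knockout libraries were nearly equal and all below WT, with a log2 fold change of -0.51 (edgeR adjusted p 0.00155, SE 0.089), and -0.29 with the length offset (adjusted p 0.0371). Cox8a was at 125, 95.2 and 123 CPM in WT and at 90.2, 89.1 and 70.9 CPM in the knockout, with a fold change on the log2 scale of -0.46 (edgeR adjusted p 0.0176) that did not pass with the offset (adjusted p 0.373). Cox6a1 fell by 0.48 on the log2 scale (edgeR adjusted p 0.0305) with overlapping groups, since knockout replicate 3 (241 CPM) exceeded WT replicate 3 (234 CPM).

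Cox4i1, the subunit that binds ATP and the most highly counted member of complex IV, did not pass. It was at 399, 445 and 323 CPM in WT and at 332, 296 and 341 CPM in the knockout. WT replicate 3 lay within the knockout range, and the log2 fold change was -0.27 (edgeR adjusted p 0.11, SE 0.110). Cox6b1, on the intermembrane-space side, had a log2 fold change of -0.34 (adjusted p 0.106), also with overlapping groups.

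Isoforms of complex IV known from muscle, lung or testis were nearly absent. Cox8b and Cox8c had no read in any library, Cox7b2 had 1 read in knockout replicate 3, and Cox4i2 had between 1 and 4 reads in each library. Cox6a2 was at 1.04, 0.782 and 1.18 CPM in WT and at 0.931, 0.794 and 0.815 CPM in the knockout, and Cox6b2 was at or below 0.675 CPM in all 6 libraries. Both had overlapping groups. Cox7a1, the heart and muscle partner of Cox7a2, was at 4.77, 4.43 and 2.68 CPM in WT and at 1.80, 1.99 and 2.61 CPM in the knockout. It had the lowest log2 fold change of all members, -0.85 (edgeR adjusted p 0.048, SE 0.278), and it passed in 2 of the 6 fits without a library and not with the length offset (adjusted p 0.145). The summed level of the muscle markers Ckm, Acta1, Myh7 and Tnnt2 was 0.0653 to 0.652 CPM in WT and at 0.199 to 1.63 CPM in the knockout.

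In complex V, Atp5o (chr16:91925214-91931687, minus strand), the stalk subunit that gives oligomycin sensitivity, was at 109, 112 and 97.9 CPM in WT and at 81.4, 76.9 and 72.0 CPM in the knockout. All knockout values were below the WT range. The log2 fold change was -0.46 (edgeR adjusted p 0.00263, SE 0.088), and -0.27 with the length offset (adjusted p 0.0436).

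Atp5j2 (chr5:145183698-145192062, minus strand), a small membrane subunit, was at 156, 157 and 124 CPM in WT and at 106, 95.8 and 105 CPM in the knockout. The groups were apart although WT replicate 3 was much lower than the other WT libraries. Its log2 fold change was -0.51 (edgeR adjusted p 0.00366, SE 0.101), and -0.29 with the length offset (adjusted p 0.0242).

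Of the 5 subunits of the catalytic head 2 fell, with a median log2 fold change of -0.22. Atp5b, the catalytic beta subunit and the most highly counted member in WT, was at 786, 800 and 810 CPM in WT and at 715, 700 and 723 CPM in the knockout. The groups were tight and separate, but the log2 fold change of -0.16 (SE 0.072) gave an edgeR adjusted p of 0.135. Atp5a1, the alpha subunit, was at 741, 801 and 715 CPM in WT and at 706, 696 and 776 CPM in the knockout, with overlap and a log2 fold change of -0.05 (SE 0.081).

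Atp5c1, the rotating gamma subunit, fell by 0.31 on the log2 scale (edgeR adjusted p 0.0324), and Atp5d, the delta subunit of the rotor, had -0.43 (adjusted p 0.0377) with overlapping groups. Neither passed with the length offset, at adjusted p of 0.289 and 0.154. Atp5e, the epsilon subunit, was the most variable of the highly counted members, at 214, 314 and 159 CPM in WT and at 180, 149 and 259 CPM in the knockout. The knockout values lay within or just below the WT range, with a log2 fold change of -0.22 (SE 0.321). Atp5d and Atp5e were named after their values were seen.

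The 3 genes for the membrane ring of c subunits encode the same mature protein and did not pass. Atp5g3 was at 241, 281 and 221 CPM in WT and at 204, 189 and 239 CPM in the knockout, with overlap and a log2 fold change of -0.23. Atp5g1 was lower in every knockout library (40.6 to 44.7 CPM in WT against 35.0 to 39.9 CPM in the knockout), at -0.19 (edgeR adjusted p 0.18). Atp5g2 was at 11.2 to 14.4 CPM in WT and at 11.1 to 12.9 CPM in the knockout, and its log2 fold change of -0.07 turned to 0.16 with the length offset.

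Summed over members, every complex had its lowest value in knockout replicate 2. Complex I was at 102%, 110% and 87.7% of the WT mean in the WT libraries and at 80.6%, 75.6% and 84.6% in the knockout. Complex IV was at 103%, 109% and 87.8% in WT and at 77.4%, 72.9% and 85.0% in the knockout. In these complexes the groups did not overlap, with the gap between WT replicate 3 and knockout replicate 3 at its narrowest. Complexes II, III and V had knockout means of 90.2%, 88.6% and 87.0% of WT, and in each the value of knockout replicate 3 (98.6%, 93.1% and 94.5%) exceeded that of WT replicate 3 (88.6%, 92.3% and 91.2%). These sums are in CPM and weigh the highly counted genes most.

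**Figure D3:**
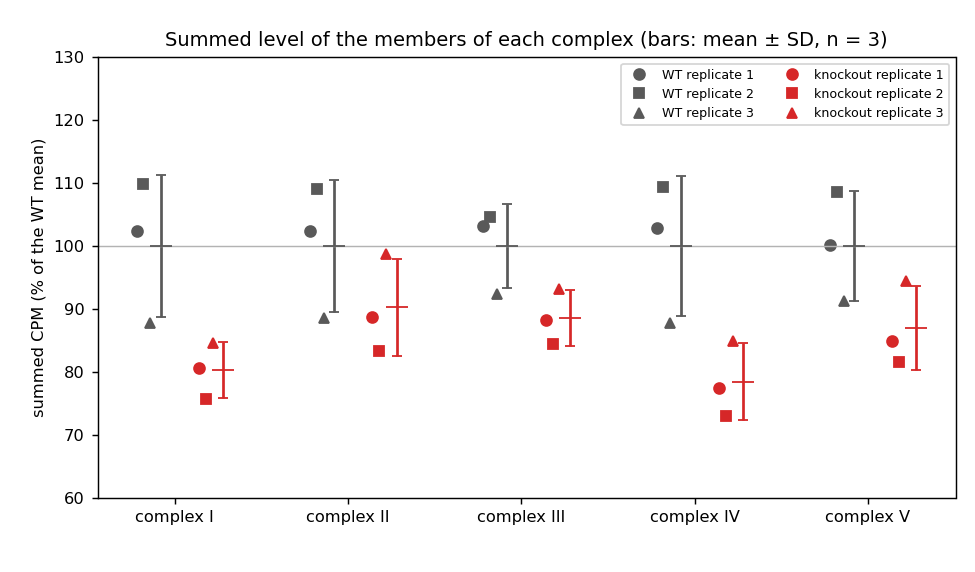
Summed CPM of the members of each complex, as a percentage of the WT mean; points are single libraries, and the marks with error bars are the mean and SD of 3 libraries. The genotypes separate in complexes I and IV and overlap in complexes II, III and V.

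Within a genotype the members did not all order the libraries alike. WT replicate 2 held the highest WT value for 42 of 80 members, WT replicate 1 for 31 and WT replicate 3 for 7. Knockout replicate 3 held the highest knockout value for 39 members, knockout replicate 1 for 28 and knockout replicate 2 for 13. Across the 80 members, which are not independent replicates, the deviation from the WT mean correlated with GC content at r = -0.41 in WT replicate 1 and 0.24 in WT replicate 2. The members' median deviation from their mean over libraries, on the log2 scale, was 0.20, 0.22 and 0.00 in WT and -0.15, -0.23 and -0.09 in the knockout. The trend of all genes at the members' lengths was 0.16, 0.17 and 0.00 in WT and -0.11, -0.14 and -0.04 in the knockout. The libraries ranked by the members' median in the same order as by this trend at the members' lengths. With the trend taken off, the members' median deviations were 0.04, 0.09 and -0.001 in WT and -0.05, -0.09 and -0.05 in the knockout. What remained was near 0 in WT replicate 3, above 0 in the other WT libraries and below 0 in every knockout library.

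Across transcript lengths, other tested genes shorter than 0.5 kb had a median log2 fold change of -0.28, and those longer than 5 kb had 0.18. The 13 members below 0.5 kb had a median of -0.34 and 5 fell, and 13.2% of the 159 other genes of that length fell. From 0.5 to 1 kb, 15 of 40 members fell with a median of -0.29, where other genes had -0.20 and 17.2%. From 1 to 1.5 kb, 7 of 11 members fell with a median of -0.30, where other genes had -0.14 and 15.5%. From 1.5 to 2 kb, 2 of 10 members fell (median -0.14, other genes -0.09 and 11.5%), and from 2 to 3 kb none of 6 fell (median -0.16, other genes -0.02 and 8.41%). In each of the 5 bins that hold members, the members' median was below that of the other genes, and no test of the group as a whole was made.

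At the members' median transcript lengths the trend had a median of -0.21, beside their median difference of -0.28. With the length offset 58 of 80 members still lay below 0, where 50.9% of all tested genes did. After each library's trend was subtracted, all knockout values lay below all WT values for 19 members, and for 16.5% of all tested genes. By complex, the medians with the offset were -0.15 in complex I, -0.09 in complex II, 0.00 in complex III, -0.08 in complex IV and -0.08 in complex V, and the members that fell numbered 6, 0, 0, 3 and 2. With the shortest instead of the median transcript of each gene, 15 members fell (background 8.27%) and the median was -0.16. Whether the length trend arises in the cells or in the preparation of the libraries was not tested.

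**Figure D4:**
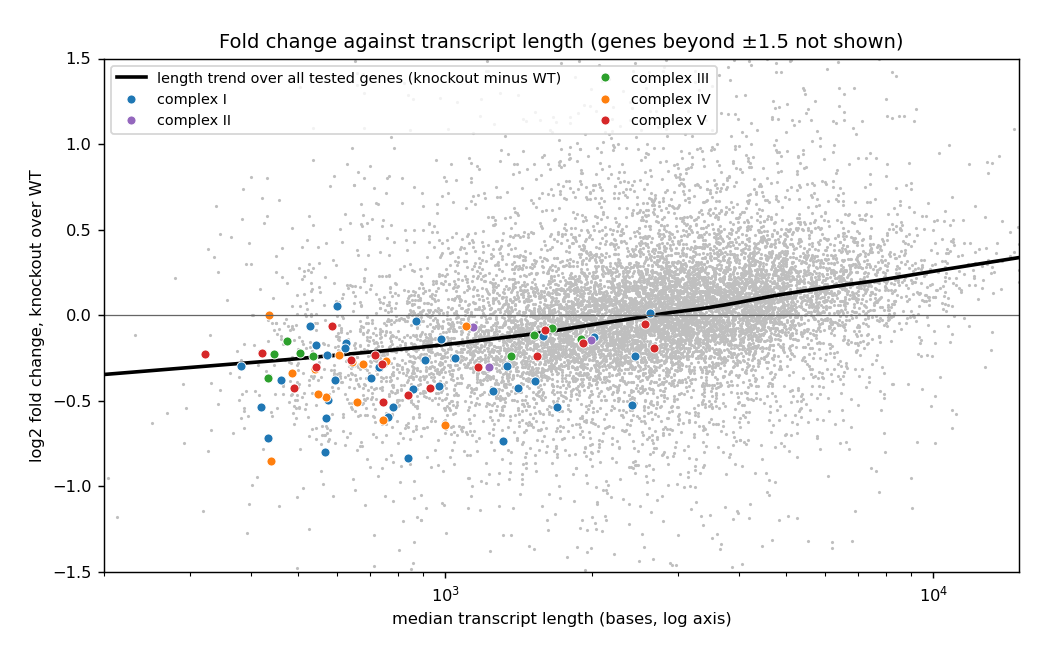
Log2 fold change (knockout over WT) of tested genes against median transcript length on a log axis, with the members coloured by complex and the trend of all genes drawn as a line. The trend runs from below 0 for short transcripts to above 0 for long ones, and the members lie on its low, short side.

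**Figure D5:**
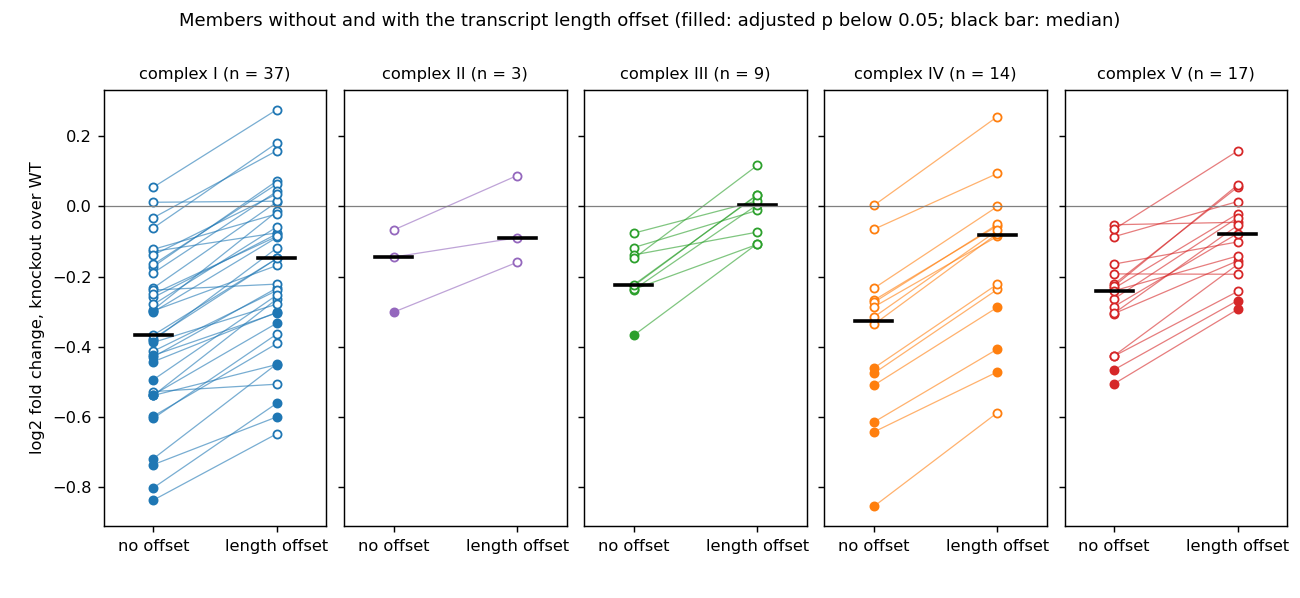
Log2 fold change of each tested member without and with the transcript length offset, by complex; lines join the 2 values of a gene, filled points passed the adjusted p of 0.05 and the black bar is the median. The medians move towards 0 in all 5 complexes, and 11 of the 29 calls remain.

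Genes that build or serve the chain were described by lists of known function. Of 15 complex I assembly factors 2 fell and none rose (median log2 fold change -0.16), a share near the 9.61% of all tested genes called lower. They were Ndufaf2, at -0.68 (edgeR adjusted p 0.0211), and Timmdc1, at -0.38 (adjusted p 0.0355), and neither passed with the length offset. Of 31 assembly factors of complexes II to V, 5 fell (16.1%, beside 9.61% of all tested genes) and none rose (median -0.19). They were led by Coa3 at -0.44 and Cmc2 at -0.60, both assembly factors of complex IV. With the length offset 1 of the 31 fell (3.23%, beside 7.67% of all tested genes), and Coa3 and Cmc2 did not pass (edgeR adjusted p 0.121 and 0.126). Without WT replicate 1 none of these assembly factors passed.

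Of 15 genes for coenzyme Q synthesis and cytochrome c, 2 fell and none rose, with a median of -0.06, again a share near the 9.61% of all tested genes. Coq3, a methyltransferase of coenzyme Q synthesis, was at 13.6, 13.4 and 14.4 CPM in WT and at 9.31, 9.45 and 8.53 CPM in the knockout. Cycs, which encodes somatic cytochrome c, was at 38.8, 36.9 and 36.4 CPM in WT and at 28.6, 27.5 and 26.6 CPM in the knockout. The groups of both genes were tight and separate, with log2 fold changes of -0.60 (edgeR adjusted p 0.00506) and -0.44 (adjusted p 0.00572). Both transcripts are long, 2651 and 3123 bases, and both calls held with the length offset, at -0.60 (adjusted p 0.00516) and -0.47 (adjusted p 0.00381).

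Of 19 tested regulators of mitochondrial biogenesis and mitochondrial DNA, 1 fell (5.26%, beside 9.61% of all tested genes) and none rose, with a median of -0.05. This was Mterf3, a repressor of mitochondrial transcription, at -0.53 (edgeR adjusted p 0.0195), and at -0.42 with the length offset, where it did not pass (adjusted p 0.0704). Of 18 markers of mitochondrial content 4 fell (22.2%), among them Phb2 at -0.41 (edgeR adjusted p 0.00538) and Vdac1 at -0.30 (adjusted p 0.0286). Without WT replicate 1 the count was 1. With the offset 1 of these markers fell (5.56%, beside 7.67% of all tested genes) and 1 rose. Of 14 genes of uncoupling and alternative electron entry 3 fell (21.4%) and none rose, and 2 fell with the offset (14.3%). Etfb, which passes electrons from fatty acid oxidation to coenzyme Q, was at -0.70 (adjusted p 0.00144) and -0.51 with the offset (adjusted p 0.00376). Ucp2, an uncoupling protein relative of the inner membrane, was at 1122, 969 and 1227 CPM in WT and at 855, 833 and 636 CPM in the knockout. All knockout values were lower, with a log2 fold change of -0.51 (adjusted p 0.00875) and of -0.59 with the offset (adjusted p 0.00316).

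Ribosomal and proteasome genes were set beside the members. Over all tested genes 9.61% were called lower, and 7.67% with the length offset. Of 77 tested mitochondrial ribosomal protein genes 23 fell (29.9%) and none rose (median -0.30), with 9 (11.7%) falling under the offset (median -0.20). Of 81 cytosolic ribosomal protein genes 49 fell (60.5%) and none rose (median -0.41), with 15 (18.5%) falling under the offset (median -0.19). Of 39 genes matching proteasome symbols 11 fell (28.2%) and none rose (median -0.23), with 5 (12.8%) falling and 1 rising under the offset (median -0.11). That last list includes Psmc3ip, which fell and encodes a recombination factor and no proteasome subunit. Without WT replicate 1 these counts were 6, 26 and 2. The respiratory chain members had a median of -0.28, within the range of these sets, and of -0.09 with the offset, nearer to 0 than all 3 sets. Median transcript lengths were 1226, 774 and 1387 bases for these sets and 743.5 bases for the members, and no difference between the sets was tested. Leaving out a library moved the median of the proteasome list between -0.33 and -0.13.

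Compared per length, as CPM per kb of transcript, WT levels of the tested members ranged from 1.38 for Cox6b2 to 544 for Atp5e. Cox4i1, Cox6a1, Atp5b and Cox6b1 followed Atp5e at 515, 484, 417 and 362 CPM per kb. Besides the restricted isoforms, the lowest were Ndufb4 at 2.36, Atp5s at 2.54 and Ndufb2 at 2.74 CPM per kb. These low and high members were picked by level after their values were seen.

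Some levels are uncertain because the genes share sequence with copies elsewhere in the genome. In 25 members some windows of 75 bases, the number of cycles of the sequencing kit, also occurred in an annotated gene at another locus, and in 9 over 20% of windows did. The share was 86.9% in Atp5g2, 63.4% in Atp5l, 50.4% in Cox7c, 38.0% in Atp5h, 35.2% in Ndufb4 and 29.1% in Uqcrb. It was 27.8% in Ndufs5, 27.1% in Ndufs3 and 22.0% in Ndufa12. For each of these 9 members the copies held in the count table summed to at most 0.613 CPM in the mean of either genotype. Few reads were thus counted at the copies. The members' own counts could still be lowered where reads with several matches were dropped. How such reads were treated is not given in the sources used here. None of the 11 members that fell with the length offset is among these 9, and the share was 17.2% in Cox5b and 10.2% in Atp5o. These shares leave out genes at the same locus. In Atp5o, 22.1% of windows also occurred in a second annotated gene named Atp5o, which overlaps 12.3% of its exon bases on the same strand. The antisense genes D430001F17Rik and Gm15976 overlap 17.5% and 18.1% of the exon bases of Atp5o, so its count is also uncertain. Exons of 30 members overlap those of another annotated gene, and in Ndufb6 and Ndufa13 the overlap covers 39.0% and 30.0% of the exon bases, with Smim27 and Tssk6 on the opposite strand. Without a stated use of strand, reads from such a pair cannot be told apart, and both of these members fell.

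Ndufa7, Ndufv3 and Ndufb10 lie 0.19, 2.5 and 9.31 Mb from Rxrb on chromosome 17, and Ndufa8 lies 8.27 Mb from Rxra on chromosome 2. No other member lay within 10 Mb of these genes or of Lyz2. Ndufa7, the nearest, had overlapping groups (63.8, 75.0 and 63.2 CPM in WT against 66.0, 55.9 and 71.5 CPM in the knockout, log2 fold change -0.06), while Ndufb10 and Ndufa8 fell. These genes are named for their position.

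Promoters of respiratory chain genes are known for sites of NRF1 and of the ETS factor GABP, so the 250 bases before each start were searched on both strands in RefSeq sequences of GRCm38.p6, which held 71 promoters of 66 members. The NRF1 core GCGCATGC occurred in 11.3% of the members' promoters, in 4.4% of those of tested genes and in 2.26% of all 32851 promoters. The ETS motif CCGGAAG occurred in 16.9%, 14.0% and 6.91%, and the YY1 motif AAGATGGCG in 1.41%, 1.24% and 0.606%. The nuclear receptor core site AGGTCA occurred in 15.5%, 10.6% and 14.0%, and no member promoter held a pair of such sites in the same direction 1 base apart, an arrangement known to bind RXR pairs, which 0.0335% of all promoters held. A match is only a match of letters, and a missing one says nothing of the factor.

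The motifs were also counted apart for the members that fell. The NRF1 core was in 2 of 31 promoters of members that fell (6.45%) and in 6 of 38 of tested members that were not called (15.8%). The ETS motif was in 3 of 31 (9.68%) and in 9 of 38 (23.7%). Both shares were thus smaller among the members that fell, on few promoters and with no test of the difference. The stretches of 30 bases below show the matches upstream of members on both sides of the threshold, with the motif and its reverse complement, which overlap where the site is a palindrome, in capitals. The lines come from RefSeq, 5′ to 3′ on the strand of the gene.
Cox6a1 (fell; NRF1; chr5:115349100-115349129, minus strand): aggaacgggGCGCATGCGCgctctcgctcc
Ndufa11 (not called; NRF1; chr17:56717693-56717722, plus strand): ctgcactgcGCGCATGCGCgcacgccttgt
Ndufa6 (not called; NRF1; chr15:82354356-82354385, minus strand): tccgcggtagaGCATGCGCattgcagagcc
Sdhd (fell; ETS; chr9:50603878-50603907, minus strand): accgtctcctgcCTTCCGGttcacgcttca
Ndufb6 (fell; ETS; chr4:40279636-40279665, minus strand): atcgtccttgttCTTCCGGtcccctcccct
Uqcr11 (not called; ETS; chr10:80406870-80406899, minus strand): tttctctcctccCCGGAAGtagatgtcaat
Cox6a1 and Ndufa11 hold the same NRF1 palindrome within otherwise different bases. Cox6a1 was at 276, 319 and 234 CPM in WT and fell in the knockout, while Ndufa11 (38.9, 36.4 and 31.9 CPM in WT against 32.3, 31.1 and 31.5 CPM in the knockout) did not pass, at -0.17. Ndufa6 and Uqcr11 had separate groups but did not pass either, at -0.29 (edgeR adjusted p 0.0737) and -0.23 (adjusted p 0.131). None of these 6 genes passed with the length offset, and Ndufa11, Ndufa6 and Uqcr11 were named for their motif.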

How the data were processed

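Whole-number counts per Ensembl gene, as deposited, were the input for all tests, and the second deposited table holds normalized log2 values made by the authors, used in 1 alternative with a pseudocount of 1. Per the submitters' processing notes, TopHat2 2.0.7, DESeq and the build mm10 (GRCm38) were used; the sources used here do not give the counting program, its annotation or its use of strand. Libraries were prepared from polyadenylated RNA, 100 ng of total RNA each, per the labels' protocols.

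Symbols, positions and transcript lengths came from GENCODE M21 (GRCm38). The median length of a gene's basic transcripts was used, and 12003 of 12011 tested genes had one. Counts were tested in R 4.3.3 with edgeR 4.0.16 (TMM factors, filterByExpr by genotype with a minimum count of 10 and a minimum total of 15, robust quasi-likelihood F test, Benjamini-Hochberg over all tested genes, threshold 0.05). The SE of a log2 fold change is its size divided by the square root of F. Levels are CPM after TMM scaling. For the length offset, a lowess curve (span 0.3) of each library's log2 deviation on log2 length was entered as an offset. Alternatives were other scaling factors and filters, DESeq2 1.42.0, limma 3.58.1, a replicate block, GC content, thinning and leaving out each library; fits were tested on simulated data. The length offset with a library left out, or with the shortest transcript, was added after seeing the data.

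Same-numbered WT and knockout libraries did not deviate together (correlations over genes of 0.05, -0.28 and -0.26), so the numbers were not used as pairs. Members and lists were chosen with earlier results of these data known. Named members are the 24 with the smallest adjusted p among those past the threshold, per complex the highest level and the highest and lowest fold change, isoforms of restricted tissues with their widespread partners, and up to 2 genes each way per list; others are said to be chosen later. A member and a marker gene that this would name are not reported here.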

Additional observations from a re-analysis of the deposited data

How the results depend on the processing

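With RLE or upper-quartile factors, no low-count filter, a CPM filter, DESeq2, limma-voom, limma on the deposited log2 values, or thinning, between 26 and 31 members fell and none rose. Over all tested genes 1035 to 1195 fell in these fits, of 11127 to 27301 tested. The length settings moved most values, which follows from their construction, since the members are short. With the length offset 11 members fell, with length and GC 15, and with the shortest transcript 15. Over all 12011 tested genes 921, 987 and 993 fell in these fits. Medians with the length offset were -0.086 for all members, -0.15 for complex I, 0.005 for complex III, -0.081 for complex IV and -0.077 for complex V, and with length and GC -0.097, -0.17, -0.039, -0.11 and -0.061. In the lists, with the length offset and with length and GC, 0 and 0 complex I assembly factors fell, 1 and 1 factors of complexes II to V, 0 and 0 regulators, 1 and 1 content markers, 9 and 10 mitochondrial ribosomal genes, 15 and 23 cytosolic ribosomal genes, and 5 and 4 of the proteasome list, and 1 content marker and 1 gene of the proteasome list rose under each. The matching medians were -0.12 and -0.091 for complex I assembly, -0.081 and -0.066 for assembly of complexes II to V, -0.058 and -0.060 for uncoupling, -0.20 and -0.21 for mitochondrial ribosome, and -0.19 and -0.21 for cytosolic ribosome, and that of content markers was -0.10 with the length offset.

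Without the filter the median of all tested genes was 0.12 and those of regulators and uncoupling genes were -0.018 and -0.25, and 1 complex I assembly factor, 2 regulators and 5 uncoupling genes fell. DESeq2 gave 1 complex I assembly factor and 2 regulators. Thinning gave 1 and 2, with 3 factors of complexes II to V, and medians of -0.12 for complex I assembly and -0.10 for regulators. On the deposited log2 values the median of all tested genes was 0.002. The cause of these shifts was not tested.

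With the replicate number as a block, 17 members fell, beside 709 genes that rose and 666 that fell over all tested genes, and 1 complex I assembly factor, 1 factor of complexes II to V, 2 regulators, 1 content marker, 8 mitochondrial ribosomal genes and 5 of the proteasome list fell. The numbers do not pair the libraries: WT replicate 2 deviated most like knockout replicate 3 (correlation over genes 0.31) and WT replicate 3 most like knockout replicate 2 (0.25). With the block and the length offset together, 4 of 80 tested members fell. Over all 12011 tested genes 583 rose and 582 fell, so the members' share called lower was near that of all tested genes. None of the assembly factors, regulators or content markers fell in that fit (0 each). It also called 5 mitochondrial and 8 cytosolic ribosomal genes and 3 of the proteasome list lower. Medians of that fit were -0.088 for all members, -0.17, -0.004, -0.075 and -0.084 for complexes I, III, IV and V, -0.11 for complex I assembly, -0.078 for assembly of complexes II to V, -0.10 for content markers, -0.077 for uncoupling, -0.20 for mitochondrial ribosome and -0.19 for cytosolic ribosome.

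Leaving out each library in turn gave 11 to 36 members that fell, and 619 to 1329 genes that fell and 667 to 1278 that rose over all tested genes. With the length offset 3, 9 and 12 members fell without WT replicates 1, 2 and 3, beside 541, 874 and 962 of all tested genes. Without knockout replicates 1, 2 and 3 the members that fell numbered 6, 7 and 11, beside 590, 728 and 880 of all tested genes. These fits tested 12050 to 12348 genes. The 3 of 80 members without WT replicate 1 were a smaller share than the 4.38% of all tested genes. Among the lists the ranges were 0 to 2 for complex I assembly, 0 to 5 for assembly of complexes II to V, 0 to 2 for regulators, 1 to 5 for content markers, 6 to 29 for mitochondrial ribosome, 26 to 63 for cytosolic ribosome and 2 to 20 for the proteasome list. Medians ranged from -0.30 to -0.14 in complex III, -0.20 to -0.11 in complex I assembly, -0.17 to -0.016 in the coenzyme Q list, -0.072 to -0.012 in regulators, -0.23 to -0.13 in uncoupling, -0.33 to -0.13 in the proteasome list and -0.008 to 0.003 over all tested genes.

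Among 38 named members, 5 changed sign, all close to 0. Atp5g2 was 0.16 with the length offset, 0.12 with length and GC, 0.17 with length and the block, and 0.042 without WT replicate 3. Sdhb was 0.088, 0.054 and 0.090 in those 3 length settings, 0.071 without WT replicate 2 and 0.019 without knockout replicate 2. Uqcrc1 was 0.016 with the length offset and 0.017 with the block added. Cox6b2 was -0.000 with upper-quartile factors, -0.006 without the filter, -0.023 with DESeq2, -0.057 with limma-voom, -0.050 on the log2 values, -0.036 with the block, and -0.12 to 0.056 with a library left out. Ndufs5 ranged from -0.011 without WT replicate 2 to 0.14 without WT replicate 3. Of the calls among the named members, 14 were lost with the length offset, 11 with length and GC, 8 with the block and 14 without WT replicate 1.

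Depth limits the rare isoforms, and 5 members were too low to test. With 3 libraries a genotype, SE of the tested members ran from 0.072 to 0.415 on the log2 scale.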
